A study of Homo sapiens with 9 samples.

Results

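Oxidative phosphorylation uses 5 protein complexes of the mitochondrial inner membrane, and 86 of the 17911 genes in the table were rows for their nuclear-encoded subunits. They were chosen by gene symbol alone (NDUFA, NDUFB, NDUFC, NDUFS, NDUFV and NDUFAB1, SDHA to SDHD, UQCR, COX4 to COX8 with an isoform letter, and ATP5F1, ATP5M and ATP5P), without rows named as pseudogenes, of which the symbol pattern matched 2. Of the 86, 82 code for proteins: 39 in complex I, 4 in complex II, 9 in complex III, 13 in complex IV and 17 in complex V, the ATP synthase. The other 4 rows are divergent or antisense noncoding transcripts named after a subunit gene. NDUFA4 is counted here with complex I by its symbol, although its protein is a subunit of complex IV. COX4I1 and CYC1 fall outside the symbol rule and are given separately.

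Complexes I and II pass electrons from NADH and succinate to ubiquinone, complex III passes them to cytochrome c and complex IV to oxygen. Complexes I, III and IV pump protons, and complex V uses the proton gradient to make ATP. Complexes I, III, IV and V are built from nuclear-encoded subunits together with subunits made from mitochondrial DNA, whereas complex II is wholly nuclear. Several complex IV subunits and NDUFA4 have a second form that is restricted to a tissue, such as testis or muscle, or that is induced by low oxygen.

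The series sets capsules beside liquid overlay spheroids of 2 sizes, 3 samples each, all labelled as MDA-MB-231, an established human line from a triple-negative breast cancer, with cell type WT. Every sample has the same stated treatment: 5% Matrigel, a basement membrane extract, after trastuzumab, an antibody against ERBB2, with 96 hours of incubation before RNA was taken. Medium had 10% serum. The labels do not say what the capsules are made of or how they differ from overlay culture. The table has 3 columns of counts headed as capsules, 3 headed L.O, the initials of liquid overlay, and 3 headed Sph.WT. Neither of the last 2 header sets names a size, so all 6 were taken as spheroids, small and large together, and are called L.O and Sph.WT spheroids. Nothing says that the 3 libraries of a set came from separate cultures, so p-values measure the spread between these libraries, which may be technical.

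The 9 libraries held 13212665 to 13735221 counts in capsules, 15525725 to 15988167 in L.O spheroids and 16605098 to 33263076 in Sph.WT spheroids. The Sph.WT libraries stood apart from the other 6. Across all genes, Pearson's r of log2(CPM + 0.5), where CPM is counts scaled to a library total of 1000000, was 0.979 to 0.986 between capsule and L.O libraries and 0.764 to 0.773 between capsule and Sph.WT libraries (a description across genes, which are not independent). The summed level of 15 genes abundant in MDA-MB-231, such as CD44, AXL and CAV1, was 611 to 623 CPM in capsules, 842 to 969 CPM in L.O spheroids and 7163 to 7539 CPM in Sph.WT spheroids, and no gene of that list was at 0 in every library of a set. The summed level of 10 genes abundant in HEK293, an embryonic kidney line with neuronal features, was 2369 to 2535 CPM in capsules, 2292 to 2473 CPM in L.O spheroids and 83.0 to 95.6 CPM in Sph.WT spheroids, where NEFL and PAX2 were at 0. These levels go with the MDA-MB-231 label in the Sph.WT libraries and against it in the capsule and L.O libraries. The headers of the capsule and L.O columns also share a format that the Sph.WT headers lack. For capsules against Sph.WT spheroids, culture format, cell markers and header format cannot be told apart, and the part of the markers in the results below was not tested. Each result is therefore given against all 6 spheroid libraries and against each header set. CPM values below use library totals, whereas fold changes use edgeR's TMM scaling, so small differences can differ in sign between them.

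The 3 sequences below show the 250 bases upstream of the start of ATP5ME, UQCRH and SDHD, from the promoter windows of RefSeq (GRCh38.p14), 5′ to 3′ on the gene's strand. They were chosen after their values were seen, because ATP5ME and UQCRH were higher in capsules than in both header sets and SDHD was higher in one comparison and lower in the other. Capitals mark matches, on either strand, to GCGCA followed by any base and GCGC, a form of the site of the nuclear respiratory factor NRF1, or to CCGGAAGT, a form of the site of ETS factors such as GABPA. Both factors are known activators of respiratory chain genes.
ATP5ME, minus strand, chr4:674277-674526: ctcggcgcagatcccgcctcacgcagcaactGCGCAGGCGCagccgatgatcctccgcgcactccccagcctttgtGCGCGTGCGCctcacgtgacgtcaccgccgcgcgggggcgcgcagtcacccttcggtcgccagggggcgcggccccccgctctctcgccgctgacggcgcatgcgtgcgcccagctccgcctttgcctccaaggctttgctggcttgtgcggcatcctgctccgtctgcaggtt
UQCRH, plus strand, chr1:46303448-46303697: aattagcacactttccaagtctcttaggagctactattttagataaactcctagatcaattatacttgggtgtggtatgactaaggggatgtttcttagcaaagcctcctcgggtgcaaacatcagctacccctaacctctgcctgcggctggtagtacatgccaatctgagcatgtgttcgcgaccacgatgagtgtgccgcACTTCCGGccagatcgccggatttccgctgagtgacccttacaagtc
SDHD, plus strand, chr11:112086623-112086872: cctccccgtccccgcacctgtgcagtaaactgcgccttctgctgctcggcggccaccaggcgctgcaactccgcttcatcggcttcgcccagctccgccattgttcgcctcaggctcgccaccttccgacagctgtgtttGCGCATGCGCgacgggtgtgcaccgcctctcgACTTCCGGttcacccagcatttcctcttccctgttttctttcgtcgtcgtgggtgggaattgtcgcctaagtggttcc
ATP5ME held 2 NRF1 matches, UQCRH 1 ETS match, and SDHD 1 of each.

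Of the 82 coding genes, 68 had a window of 300 bases, 250 before and 50 after the start. The NRF1 letters were in 16 of them (23.5%), against 10.2% of the 13502 genes of the table with a window. The ETS letters were in 10 (14.7%), against 7.46%. AAGATGGCG, a form of the site of YY1, was in 8 (11.8%), against 3.29%. At least 1 of the 3 was in 30 (44.1%), against 19.1%. The motifs were searched on both strands, and none of the 3 contains another. By complex, the NRF1 letters were in 6 of 34 windows of complex I, 2 of 3 of complex II, 4 of 7 of complex III, 0 of 11 of complex IV and 4 of 13 of complex V. A match is a description of these letters and not a binding site.

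Nuclear subunit genes as a whole took a larger share of the counts in capsules than in either spheroid set. Their summed counts were 1.29%, 1.28% and 1.19% of all counts in the capsule libraries, against 1.06%, 1.03% and 1.12% in the L.O libraries and 0.640%, 0.577% and 0.624% in the Sph.WT libraries. The lowest capsule library lay above the highest spheroid library. In bulk RNA, fewer cells of a type and less RNA per cell cannot be told apart. The mean was 1.25% ± 0.0533 in capsules (SD, n = 3) and 0.842% ± 0.252 in all spheroids (SD, n = 6), and the exact two-sided permutation test gave p = 0.0238, the smallest that 84 arrangements allow, and 0.0476 after adjustment over 8 measures. Within header sets the capsule mean was 1.17-fold the L.O mean of 1.07% ± 0.0456 and 2.04-fold the Sph.WT mean of 0.614% ± 0.0327 (SD, n = 3 each). Both of those exact tests gave p = 0.1, the smallest that 3 against 3 allow.

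The mean share of each complex was also higher in capsules, by unequal amounts. Complex III took 0.165% ± 0.00602 of counts in capsules, against 0.135% ± 0.00419 in L.O and 0.0676% ± 0.00291 in Sph.WT spheroids (SD, n = 3 each). Complex V took 0.418% ± 0.0138 in capsules, against 0.341% ± 0.00684 in L.O and 0.222% ± 0.00706 in Sph.WT spheroids. Capsules had 0.450% ± 0.0247 for complex I, against 0.404% ± 0.0286 in L.O and 0.201% ± 0.0152 in Sph.WT spheroids, and the capsule and L.O libraries overlapped. Capsules had 0.169% ± 0.0122 for complex IV, against 0.141% ± 0.00793 in L.O and 0.0797% ± 0.00733 in Sph.WT spheroids. Complex II, the succinate dehydrogenase, had the least difference, with 0.0509% ± 0.00154 in capsules, against 0.0488% ± 0.000828 in L.O and 0.0436% ± 0.00164 in Sph.WT spheroids, and here too the capsule and L.O libraries overlapped. Against all 6 spheroid libraries the exact two-sided permutation test gave p = 0.0238 for complexes III, IV and V (0.0476 adjusted over the 8 measures) and 0.0476 for complexes I and II (0.0635 adjusted). Against L.O spheroids alone the exact p was 0.1 for complexes III, IV and V and 0.2 for complexes I and II, and against Sph.WT spheroids alone it was 0.1 for each complex, where 0.1 is the smallest p that 3 against 3 libraries allow.

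**Figure D1:**
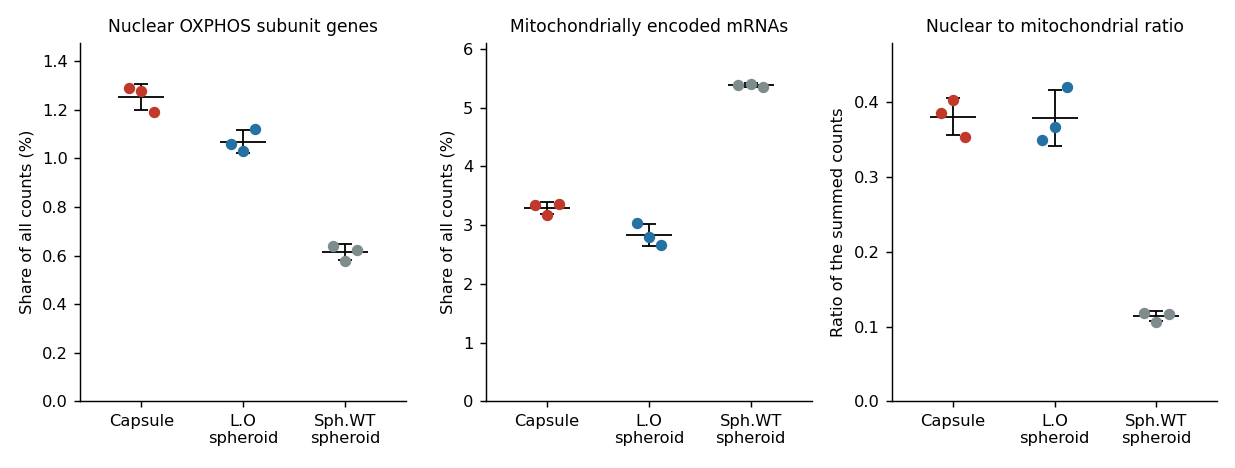
Share of all counts (percent) taken by the nuclear oxidative phosphorylation (OXPHOS) subunit genes, left, and by the 13 mitochondrially encoded mRNAs, middle, and the ratio of both sums, right; each point is a library, and bars are the mean and SD of 3. The nuclear share was 1.25% in capsules, 1.07% in L.O and 0.614% in Sph.WT spheroids, whereas the mitochondrial share was highest in Sph.WT spheroids, at 5.38%.

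The mRNAs made from mitochondrial DNA did not follow the nuclear subunit genes in the Sph.WT libraries. They took 3.29% ± 0.109 of counts in capsules, 2.83% ± 0.184 in L.O spheroids and 5.38% ± 0.0306 in Sph.WT spheroids (SD, n = 3 each). The ratio of nuclear subunit to mitochondrial mRNA counts was 0.381 ± 0.0248 in capsules and 0.379 ± 0.0369 in L.O spheroids, and the libraries overlapped (exact two-sided permutation p = 0.9). In Sph.WT spheroids it was 0.114 ± 0.00647, and capsules were 3.34-fold higher with no overlap (exact p = 0.1, the smallest possible). Against all 6 spheroid libraries the ratio gave p = 0.2143 and the mitochondrial share p = 0.4762 in the same exact test.

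Gene by gene, 14 of the 82 coding subunit genes were higher in capsules than in all 6 spheroid libraries and 0 were lower, by edgeR's quasi-likelihood test across all genes with an adjusted p under 0.05. Over all 16985 genes tested, 2.3% were called higher and 1.47% lower, and the median log2 fold change was 0.54 for the subunit genes and −0.06 for all genes. At an unadjusted p under 0.05, 45 subunit genes were higher and 0 lower, beside 4929 of the 16985 genes in either direction. DESeq2, another count test, called 33 subunit genes higher and 0 lower, beside 4025 genes of the table in either direction. No subunit gene was called at a change of at least 2-fold, where 0.241% of all genes were called higher and 0.801% lower. The biological coefficient of variation was 66.0% in this comparison, which holds both header sets. With any capsule library left out, 0 subunit genes and 0 genes of the table were called. At an unadjusted p under 0.05, 31 to 40 subunit genes were then higher, beside 2448 to 2620 genes of the table in either direction. Leaving out L.O replicate 1, 2 or 3 gave 12, 6 and 12 subunit genes higher, beside 609, 287 and 409 genes of the table called. Leaving out Sph.WT replicate 1, 2 or 3 gave 4, 5 and 3, beside 154, 240 and 207.

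The 14 genes called were NDUFA4, NDUFA9, NDUFB1, NDUFB4 and NDUFS5 under complex I, UQCRB and UQCRQ in complex III, COX5B, COX6C and COX7B in complex IV, and ATP5F1E, ATP5MC3, ATP5MK and ATP5PF in complex V. In each of the 14, every capsule library lay above every spheroid library, as it did for 41 of all 82 subunit genes and 1894 of 16985 genes tested. The 14 were called higher in these same libraries, so their separation is no added support. Log2 fold changes against all spheroids were between 0.47 for UQCRB and 0.94 for NDUFB1. The 7 core subunits of complex I and the 4 subunits of complex II had 0 calls in this comparison. Calls were rare over all genes too, with 2.3% higher and 1.47% lower. The log2 fold change was positive for 6 of the 7 core genes and 2 of the 4 genes of complex II.

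Against L.O spheroids, whose libraries resembled the capsules most, most subunit genes were higher in capsules, by small amounts. Of 80 coding subunit genes that passed the filter on low counts, 61 were higher in capsules and 1, COX6B2, was lower, while 18 were not called. Among the 15919 genes tested, 24.7% were called higher and 25.4% lower. The median log2 fold change was 0.42 for the subunit genes, a 1.34-fold difference, and −0.01 for all genes. Every capsule library lay above every L.O library for 47 of the 82 subunit genes, against 17.2% of all genes tested. The biological coefficient of variation was 7.33%. A change of at least 2-fold was called for NDUFA4L2, which was higher, and for COX6B2, which was lower, while 0.792% of all genes were called at least 2-fold higher and 5.54% at least 2-fold lower. NDUFA4L2 was under 2-fold without capsule replicate 2 (log2 fold change 0.98), L.O replicate 1 (0.94) or L.O replicate 2 (0.85).

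Complex V had 16 of 17 genes higher in capsules than in L.O spheroids, with a median log2 fold change of 0.53, and ATP5F1D, a subunit of the central stalk, was the gene not called (0.05 ± 0.13, SE). Complex III had 8 of 9 higher (median 0.45), with UQCRC1 not called. Complex II had 3 of 4 higher (median 0.27) and complex I 28 of 39 (median 0.36). Complex IV had 6 of 11 tested genes higher and 1 lower (median 0.42). Over all genes tested, 24.7% were called higher and 25.4% lower. COX7B, an accessory subunit of complex IV, had the highest log2 fold change after NDUFA4L2.

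Against Sph.WT spheroids the differences were larger and went both ways. Of 81 genes tested, 65 were higher in capsules, 10 lower and 6 not called, and 43.2% of all 16157 genes tested were called higher and 42.9% lower. The median log2 fold change was 0.78 for the subunit genes and 0.01 for all genes. At least 2-fold changes were called for 32 subunit genes higher and 3 lower, where 26.3% and 25.4% of all genes were called. The 3 lower genes were COX7B2, NDUFB5 and SDHD. By complex, 32 of 39 were higher and 5 lower in complex I, 2 higher and 2 lower in complex II, 8 higher and 1 lower in complex III, 8 higher and 1 lower of 12 in complex IV, and 15 higher and 1 lower in complex V. Both comparisons use the same 3 capsule libraries, so their values stand side by side and are not independent.

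Complex I has 7 nuclear core subunits here, which carry the flavin and the iron-sulfur clusters or line the quinone site, and many accessory subunits around them. Against L.O spheroids 5 of the 7 core genes were higher in capsules (median log2 fold change 0.22), beside 23 of the other 32 genes (median 0.42). Against Sph.WT spheroids the core genes had a median of 0.52 and 0 of 7 reached a called 2-fold increase, beside a median of 1.03 and 17 of 32 for the other genes. Over all genes tested, 24.7% were called higher against L.O, and 26.3% were called at least 2-fold higher against Sph.WT. The other 32 genes include NDUFA4 and NDUFA4L2, placed under complex I by symbol. Whether core and accessory genes differ was not tested.

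Among the core genes, NDUFS1, the largest iron-sulfur subunit, was at 117, 110 and 120 CPM in capsules, against 105, 102 and 96.4 CPM in L.O spheroids and 87.3, 96.4 and 92.6 CPM in Sph.WT spheroids. The capsule libraries lay above both sets, and the log2 fold change was 0.34 ± 0.071 against L.O (SE, adjusted p = 0.000531, edgeR) and 0.05 ± 0.073 against Sph.WT (adjusted p = 0.503). NDUFV1, the flavin-bearing subunit, was at 213, 248 and 214 CPM in capsules, against 242, 247 and 238 CPM in L.O and 161, 133 and 144 CPM in Sph.WT spheroids. It overlapped with L.O and was not called (0.04 ± 0.073), and it was higher than in Sph.WT spheroids (0.35 ± 0.080, adjusted p = 0.000501, edgeR). NDUFV2, the partner of NDUFV1, was at 32.5, 30.1 and 31.9 CPM in capsules, against 25.8, 24.3 and 26.5 CPM in L.O and 40.5, 34.0 and 41.4 CPM in Sph.WT spheroids. Capsules lay between the sets, above every L.O library (0.45 ± 0.089) and below every Sph.WT library (−0.56 ± 0.091), both called by edgeR.

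NDUFS7, which carries the last iron-sulfur cluster before ubiquinone, was at 135, 159 and 118 CPM in capsules, against 152, 156 and 174 CPM in L.O and 67.4, 49.4 and 54.7 CPM in Sph.WT spheroids. It was not called against L.O (−0.08 ± 0.091) and was higher than in Sph.WT (1.00 ± 0.11). NDUFS3 and NDUFS8, core genes of the quinone-side arm, were called higher in both comparisons, by 0.26 and 0.22 against L.O and by 0.79 and 0.52 against Sph.WT on the log2 scale.

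Several accessory genes of complex I were higher in capsules than in both header sets. NDUFB1, a small membrane-arm subunit, was at 63.6, 59.5 and 52.0 CPM in capsules, against 37.4, 37.7 and 43.7 CPM in L.O and 20.6, 17.6 and 23.0 CPM in Sph.WT spheroids, with no overlap. Its log2 fold change was 0.71 ± 0.093 against L.O and 1.25 ± 0.10 against Sph.WT. NDUFA9, NDUFB4 and NDUFS5 rose in both as well, by 0.47, 0.57 and 0.49 against L.O and 0.78, 1.09 and 0.79 against Sph.WT.

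A group of accessory genes chosen after their values were seen stood far higher in capsules and L.O spheroids than in Sph.WT spheroids. NDUFB8, a membrane-arm subunit, was at 425, 448 and 408 CPM in capsules, against 355, 334 and 385 CPM in L.O spheroids and 74.1, 57.8 and 68.5 CPM in Sph.WT spheroids. Its log2 fold change was 0.40 ± 0.074 against L.O and 2.41 ± 0.084 against Sph.WT. NDUFA3, NDUFA7, NDUFB9 and NDUFB10 had log2 fold changes of 2.68, 2.55, 2.36 and 2.29 against Sph.WT, and of 0.30, 0.35, 0.29 and 0.17 against L.O, where NDUFA3 and NDUFB10 were not called. NDUFB5, another membrane-arm subunit, went the other way at 35.1, 39.9 and 37.7 CPM in capsules, against 41.3, 37.6 and 51.4 CPM in L.O and 73.9, 69.0 and 77.1 CPM in Sph.WT spheroids. It was lower than in Sph.WT (−1.24 ± 0.079) and not called against L.O (−0.06 ± 0.10). NDUFC2, NDUFS4 and NDUFA5 were called lower in capsules than in Sph.WT spheroids, with log2 fold changes of −0.56, −0.30 and −0.24. They were higher than in L.O spheroids, with 0.43, 0.69 and 0.52. By library totals, mean NDUFA5 was 66.0 CPM in capsules and 64.5 CPM in Sph.WT spheroids, and mean NDUFS4 30.1 and 30.6 CPM. With that scaling alone, 5 subunit genes were called lower than in Sph.WT spheroids, beside 10 with TMM. The CPM of the capsule and Sph.WT libraries overlapped for NDUFS4 and NDUFA5, and those of the capsule and L.O libraries for NDUFC2.

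The subunits of complex II, which oxidizes succinate in the TCA cycle, moved apart from one another. SDHB, the iron-sulfur subunit, was at 112, 126 and 112 CPM in capsules, against 111, 107 and 121 CPM in L.O and 43.8, 47.8 and 45.5 CPM in Sph.WT spheroids, and was higher in capsules in both comparisons (0.20 ± 0.076 and 1.08 ± 0.079). SDHD, a membrane anchor, was at 55.3, 50.7 and 52.6 CPM in capsules, against 45.6, 48.2 and 45.2 CPM in L.O and 87.4, 86.1 and 94.6 CPM in Sph.WT spheroids. Capsules lay above every L.O library (0.34 ± 0.078, adjusted p = 0.00138, edgeR) and below every Sph.WT library (−1.03 ± 0.075, adjusted p = 1.27e-10). The other anchor, SDHC, was higher in capsules in both comparisons (0.42 ± 0.076 and 0.32 ± 0.069).

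SDHA, the flavin-bearing subunit of complex II, was at 225, 237 and 219 CPM in capsules, against 231, 239 and 238 CPM in L.O and 250, 222 and 210 CPM in Sph.WT spheroids, and the sets overlapped. It was not called against L.O (0.09 ± 0.068). It was called lower than in Sph.WT (−0.28 ± 0.075), a direction that did not hold with library totals as the only scaling (0.00011) or with offsets for exon length and GC content (0.026).

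In complex III, UQCRQ, a small accessory subunit, was at 129, 112 and 97.6 CPM in capsules, against 79.5, 70.9 and 92.2 CPM in L.O and 43.6, 39.8 and 44.3 CPM in Sph.WT spheroids, with a narrow gap to L.O replicate 3. Its log2 fold change was 0.63 ± 0.10 against L.O and 1.13 ± 0.093 against Sph.WT. UQCRH, the hinge protein that binds cytochrome c1, was at 288, 267 and 264 CPM in capsules, against 191, 184 and 185 CPM in L.O and 54.9, 52.9 and 57.0 CPM in Sph.WT spheroids. It was higher in capsules by 0.70 ± 0.069 and 2.04 ± 0.072. UQCRHL, an intronless near-copy of UQCRH, was higher by 0.67 and 2.24, but the reads of both may have been split between them in counting, so their values are uncertain.

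UQCRFS1, the Rieske iron-sulfur protein, is a catalytic nuclear subunit of complex III. In L.O spheroids it was at 42.2, 48.5 and 50.3 CPM, and in Sph.WT spheroids at 56.5, 52.3 and 51.3 CPM. In capsules it was at 52.3, 54.7 and 56.0 CPM. It was higher than in L.O (0.36 ± 0.082) and overlapped with Sph.WT, where it was called lower (−0.25 ± 0.076), a direction that turned with library totals as the only scaling (0.027) and with upper quartile factors (0.0072). UQCRB rose in both comparisons, by 0.54 and 0.44.

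In complex IV, COX7B was at 122, 104 and 107 CPM in capsules, against 62.3, 64.2 and 66.7 CPM in L.O and 58.8, 56.8 and 58.7 CPM in Sph.WT spheroids, with no overlap. Its log2 fold change was 0.93 ± 0.079 against L.O (adjusted p = 3e-08, edgeR) and 0.66 ± 0.078 against Sph.WT (adjusted p = 1.9e-07). COX5B, which surrounds the catalytic core, was at 192, 177 and 159 CPM in capsules, against 125, 115 and 125 CPM in L.O and 86.4, 79.8 and 94.4 CPM in Sph.WT spheroids, and rose by 0.68 ± 0.079 and 0.75 ± 0.083. COX6C rose by 0.67 and 0.56. These were the 3 genes of the complex called against all 6 spheroid libraries.

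COX8A, COX6A1, COX6B1 and COX7A2L were not called against L.O spheroids. COX8A, a small membrane subunit, was at 204, 200.1 and 173 CPM in capsules, against 196, 191 and 217 CPM in L.O and 139, 106 and 128 CPM in Sph.WT spheroids. It was not called against L.O (0.08 ± 0.079) and was higher than in Sph.WT (0.36 ± 0.090), although offsets for exon length and GC content turned the sign of the second (−0.44). COX6A1 was not called against L.O (0.23 ± 0.10) and was higher than in Sph.WT (1.61 ± 0.12). COX7A2L, which joins complexes III and IV in supercomplexes, was called in neither (0.14 ± 0.078 and −0.01 ± 0.075).

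The restricted forms of NDUFA4 and of the COX subunits were scarce in all libraries. NDUFA4L2, the form of NDUFA4 induced by low oxygen, was at 3.41, 3.71 and 3.46 CPM in capsules, against 1.66, 1.44 and 2.64 CPM in L.O spheroids and 0.302, 0.0301 and 0 CPM in Sph.WT spheroids. Every capsule library lay above every spheroid library, and the log2 fold change was 1.03 ± 0.24 against L.O (adjusted p = 0.00147, edgeR). It rested on 45 to 51 counts a library in capsules and 23 to 41 in L.O spheroids, and on 6, 1 and 0 counts in Sph.WT spheroids, against which edgeR called it higher (adjusted p = 1.07e-08). NDUFA4 itself was at 122, 121 and 117 CPM in capsules, against 85.4, 79.9 and 95.1 CPM in L.O and 72.9, 64.3 and 72.2 CPM in Sph.WT spheroids, higher by 0.61 ± 0.076 and 0.51 ± 0.072.

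COX6B2, known as a testis form of COX6B1, was at 0.605, 0.728 and 0.588 CPM in capsules, against 1.66, 1.69 and 1.87 CPM in L.O spheroids. It was lower in every capsule library (−1.28 ± 0.32, adjusted p = 0.00241, edgeR), from 8 to 10 counts a library in capsules and 26 to 29 in L.O spheroids. In Sph.WT spheroids it had 0, 1 and 0 counts and did not pass the filter. COX6B1 was at 166, 176 and 137 CPM in capsules, against 159, 147 and 168 CPM in L.O and 101, 82.3 and 92.0 CPM in Sph.WT spheroids. It was not called against L.O (0.17 ± 0.088).

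COX7B2, another form known from testis, had 0 counts in every capsule and every L.O library, which allows up to 0.227 CPM in a capsule library at 3 counts, and 23 to 37 counts in the Sph.WT libraries (1.16, 1.11 and 1.45 CPM). It was at least 4.90-fold higher in Sph.WT spheroids than that floor of 3 counts per library in capsules, a limit that covers counting error only. COX7A1, the heart and muscle form, had 12, 10 and 2 counts in capsules, against 5, 4 and 0 in L.O and 11, 15 and 14 in Sph.WT spheroids, and the sets overlapped. COX7A2, its widely expressed partner, was higher in capsules than in L.O (0.52 ± 0.086) and not called against Sph.WT (0.08 ± 0.10). COX4I2, COX6A2 and COX8C were not analysed here.

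**Figure D2:**
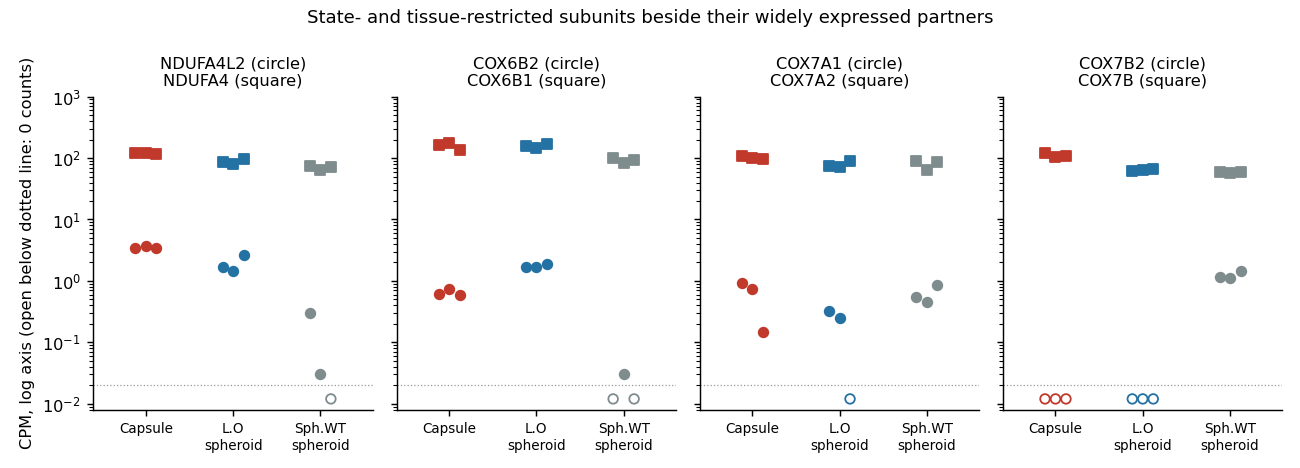
CPM on a log axis for 4 restricted subunit genes (circles) and their widely expressed partners (squares), 1 point a library; open symbols under the dotted line had 0 counts. NDUFA4L2 was highest in capsules, COX6B2 highest in L.O spheroids and COX7B2 detected only in the 3 Sph.WT libraries, while the partners lay between 56.8 and 176 CPM in all 9 libraries.

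The ATP synthase joins the catalytic F1 head to the membrane part through a central and a peripheral stalk. ATP5F1B, the catalytic beta subunit, was at 1083, 1064 and 1077 CPM in capsules, against 994, 989 and 957 CPM in L.O and 470.0, 476 and 498 CPM in Sph.WT spheroids. It was higher by 0.28 ± 0.066 and 0.88 ± 0.062 on the log2 scale, with no overlap. ATP5F1A, the alpha subunit of the same ring, was at 492, 468 and 491 CPM in capsules, against 414, 397 and 384 CPM in L.O and 522, 534 and 526 CPM in Sph.WT spheroids. Capsules lay above every L.O library (0.42 ± 0.068, adjusted p = 3.98e-05, edgeR) and below every Sph.WT library (−0.40 ± 0.063, adjusted p = 7.7e-06). The alpha and beta genes of 1 ring thus differed in direction against Sph.WT spheroids. ATP5F1E, the epsilon subunit of the central stalk, was at 77.3, 66.8 and 72.7 CPM in capsules, against 45.3, 42.9 and 46.3 CPM in L.O and 36.4, 35.4 and 38.5 CPM in Sph.WT spheroids, higher by 0.83 ± 0.080 and 0.70 ± 0.080.

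All 8 ATP5M genes, which encode the c-ring and other parts of the membrane domain, were higher in capsules in both comparisons, and so were all 4 ATP5P genes of the peripheral stalk. Over all genes tested, 24.7% were called higher against L.O and 43.2% against Sph.WT. ATP5MC3, 1 of the 3 genes for subunit c, was at 324, 312 and 313 CPM in capsules, against 239, 228 and 234 CPM in L.O and 146, 135 and 149 CPM in Sph.WT spheroids, higher by 0.58 ± 0.067 and 0.87 ± 0.066. ATP5ME, subunit e, which helps to pair ATP synthases into dimers, was named after its values were seen. It was at 149, 141 and 122 CPM in capsules, against 82.7, 83.1 and 83.3 CPM in L.O and 22.9, 20.5 and 22.7 CPM in Sph.WT spheroids, with wide gaps between the 3 sets. Its log2 fold change was 0.87 ± 0.080 against L.O and 2.37 ± 0.090 against Sph.WT. ATP5PF and ATP5MK were higher by 0.53 and 0.54 against L.O and by 0.51 and 0.69 against Sph.WT.

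**Figure D3:**
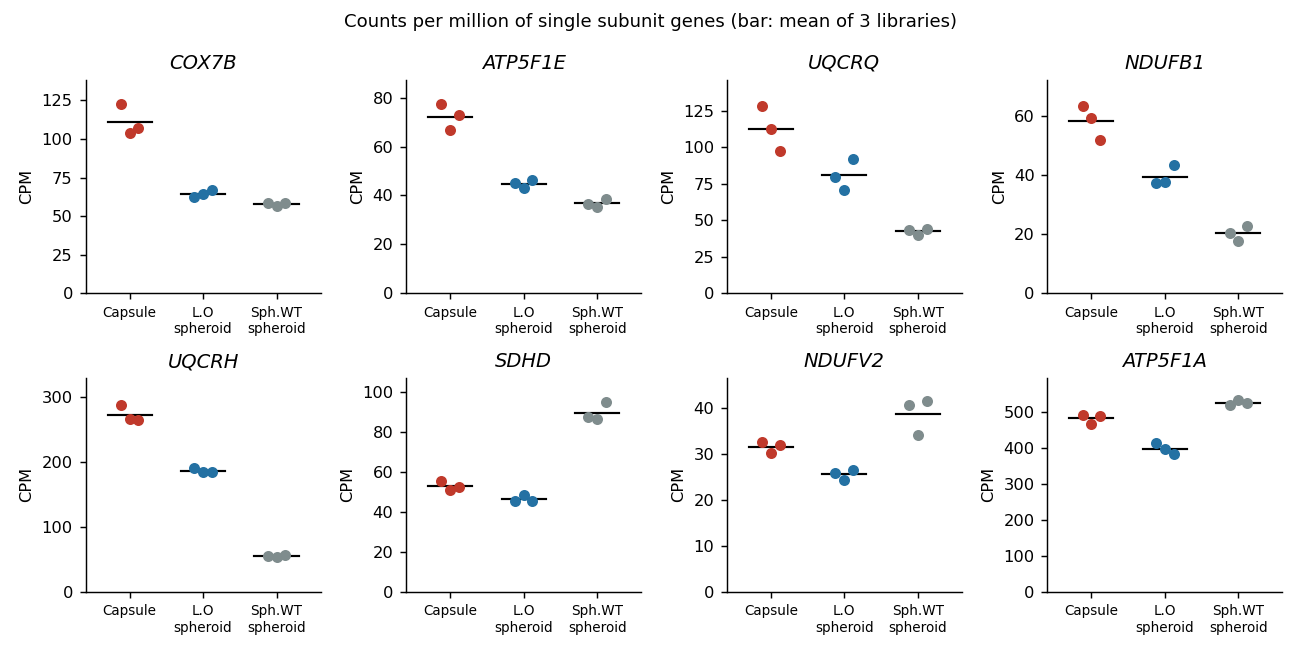
CPM of 8 subunit genes in each library, with bars for the mean of 3. COX7B, ATP5F1E, UQCRQ, NDUFB1 and UQCRH were higher in capsules than in both spheroid sets, whereas SDHD, NDUFV2 and ATP5F1A lay above L.O spheroids and below Sph.WT spheroids.

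The 4 noncoding rows were scarce, between 0 and 5.44 CPM. Of the 3 that passed the filter, none was called against L.O spheroids, and NDUFA6-DT and NDUFB2-AS1 were called higher against Sph.WT spheroids (1.85 ± 0.46 and 1.37 ± 0.22). NDUFV1-DT was not tested. It had 1, 3 and 0 counts in capsules, against 12, 9 and 8 in L.O and 0, 1 and 0 in Sph.WT spheroids. Strand handling was not stated, so reads of the antisense rows, NDUFB2-AS1 and NDUFV2-AS1, cannot be separated from those of the subunit gene each overlaps.

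Per length, which is needed to compare different genes, the order of the complexes differed between header sets and with the length used. The median CPM per kilobase of joined exons in capsules was 76.6 for complex III, 61.2 for complex V, 52.9 for complex IV, 36.1 for complex I and 22.9 for complex II. The same medians were 54.9, 53.5, 40.9, 34.8 and 22.2 in L.O spheroids and 28.9, 26.6, 38.2, 17.6 and 22.8 in Sph.WT spheroids, so complex III was first in capsules and L.O spheroids and complex IV in Sph.WT spheroids. With the length of the principal transcript in place of joined exons, capsule medians were 134 for complex III, 154 for complex V, 133 for complex IV, 93.5 for complex I and 65.9 for complex II. In the same order they were 96.4, 117, 109, 86.3 and 65.0 in L.O spheroids and 38.3, 64.9, 52.3, 44.8 and 50.9 in Sph.WT spheroids. Complex V was then first in every set, and complex III was next in capsules, behind complexes V and IV in L.O spheroids and last in Sph.WT spheroids. Ranges within each complex were wider than these differences.

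Length moved with the fold changes against Sph.WT spheroids, and base composition against both header sets, in opposite directions. The subunit genes are short, with a median principal transcript of 1090 bases, against 2925 for all genes. In capsules against Sph.WT spheroids, the median log2 fold change over all genes was 0.61 in the tenth with the shortest exons and −0.28 in the tenth with the longest. In capsules against L.O spheroids it was 0.27 in the tenth with the lowest GC content and −0.40 in that with the highest. Offsets for exon length and GC content gave 69 subunit genes higher and 2 lower against L.O (median 0.39). Against Sph.WT they gave 56 higher and 14 lower (median 0.58). Shares of all genes with the offsets are not given for these 2 comparisons, so these counts are no result about the subunit genes alone. Against all spheroids 12 subunit genes were higher and 0 lower (median 0.43), beside 477 genes of the table called in either direction. Among the subunit genes, Spearman's rho of the log2 fold change with GC content was −0.45 against L.O (80 genes) and 0.382 against Sph.WT (81 genes), a description over genes that share libraries.

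Scaling moved the level of all genes. With library totals alone the median log2 fold change of all genes was −0.16 against L.O and 0.29 against Sph.WT, and calls over all genes against L.O were 2281 higher and 5848 lower, beside 3934 and 4036 with TMM. Against all 6 spheroid libraries, 99 genes were higher and 260 lower with library totals alone, beside 390 and 249 with TMM. Upper quartile factors gave 2995 higher and 4873 lower against L.O, and 222 higher and 264 lower against all 6 spheroid libraries. Relative to all genes, the median of the subunit genes was 0.43 higher against L.O and 0.77 higher against Sph.WT under each of these scalings.

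Other genes of the pathway, taken from lists of gene names, are given next. CYCS, the electron carrier cytochrome c, was at 391, 397 and 389 CPM in capsules, against 267, 241 and 264 CPM in L.O and 200.1, 182 and 188 CPM in Sph.WT spheroids, with no overlap. It was called higher in all 3 comparisons (0.75 ± 0.089 against all spheroids, adjusted p = 0.014, edgeR). COX4I1 and CYC1 were called higher against Sph.WT spheroids (1.17 and 0.70) and not against L.O (0.17 and 0.04). The counts that follow stand beside 24.7% higher and 25.4% lower of all genes tested against L.O, and 43.2% higher and 42.9% lower against Sph.WT. Of the 17 assembly factors of complex I, 8 were higher and 1 lower against L.O, and 10 higher and 3 lower against Sph.WT. Of 24 for complex IV the counts were 13 and 1, and 16 and 3. Of 6 for complex III they were 5 and 0, and 4 and 2. Of 4 for complex II they were 2 and 0, and 2 and 2. Of 6 for the ATP synthase they were 2 and 0, and 5 and 1.

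Among assembly factors, NDUFAF4, of complex I, was at 28.3, 27.2 and 28.8 CPM in capsules, against 17.1, 15.8 and 19.7 CPM in L.O and 12.6, 15.1 and 15.8 CPM in Sph.WT spheroids, and was higher than in all spheroids (0.73 ± 0.14, adjusted p = 0.0345, edgeR). SURF1, of complex IV, was lower in capsules against both sets (−0.49 ± 0.12 and −0.82 ± 0.11). SLIRP, which stabilizes mitochondrial mRNAs, was higher against both (0.66 ± 0.085 and 1.92 ± 0.11).

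Of the 13 mitochondrially encoded mRNAs, 9 were higher and 0 lower in capsules than in L.O spheroids (median log2 fold change 0.33), and 1 higher and 12 lower than in Sph.WT spheroids (median −0.80). The gene higher in both was ATP8, at 266, 246 and 328 CPM in capsules, against 170.5, 168 and 165 CPM in L.O and 127, 128 and 123 CPM in Sph.WT spheroids. COX1, the catalytic subunit of complex IV, was at 8177, 8133 and 8013 CPM in capsules, against 7224, 6401 and 5899 CPM in L.O and 18779, 18616 and 18600 CPM in Sph.WT spheroids. Of 14 TCA cycle genes, 8 were higher and 2 lower against L.O, and 8 higher and 4 lower against Sph.WT. Of all genes tested, 24.7% were higher and 25.4% lower against L.O, and 43.2% higher and 42.9% lower against Sph.WT.

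Of the regulators of mitochondrial gene expression, 9 of 14 were higher and 1 lower in capsules against L.O, and 6 of 15 higher and 5 lower against Sph.WT, where the shares of all genes were 43.2% and 42.9%. Against L.O those shares were 24.7% and 25.4%. TFAM, the packaging factor of mitochondrial DNA, was at 71.2, 63.3 and 69.9 CPM in capsules, against 48.6, 41.2 and 44.1 CPM in L.O and 84.2, 85.8 and 90.6 CPM in Sph.WT spheroids, above the first set (0.76 ± 0.084) and below the second (−0.63). PPARGC1A, a coactivator of mitochondrial genes, was at 0.291 to 0.441 CPM in capsules and 0.256 to 0.386 CPM in L.O spheroids, against 32.1 to 37.3 CPM in Sph.WT spheroids. HIF1A, the oxygen-regulated transcription factor, was at 59.9 to 73.5 CPM in capsules and 63.0 to 74.7 CPM in L.O spheroids, against 457 to 597 CPM in Sph.WT spheroids. MYC was at 148, 178 and 161 CPM in capsules, against 97.2, 98.6 and 93.5 CPM in L.O and 108, 103 and 101 CPM in Sph.WT spheroids, and was called higher in both (0.90 ± 0.076 and 0.37).

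**Figure D4:**
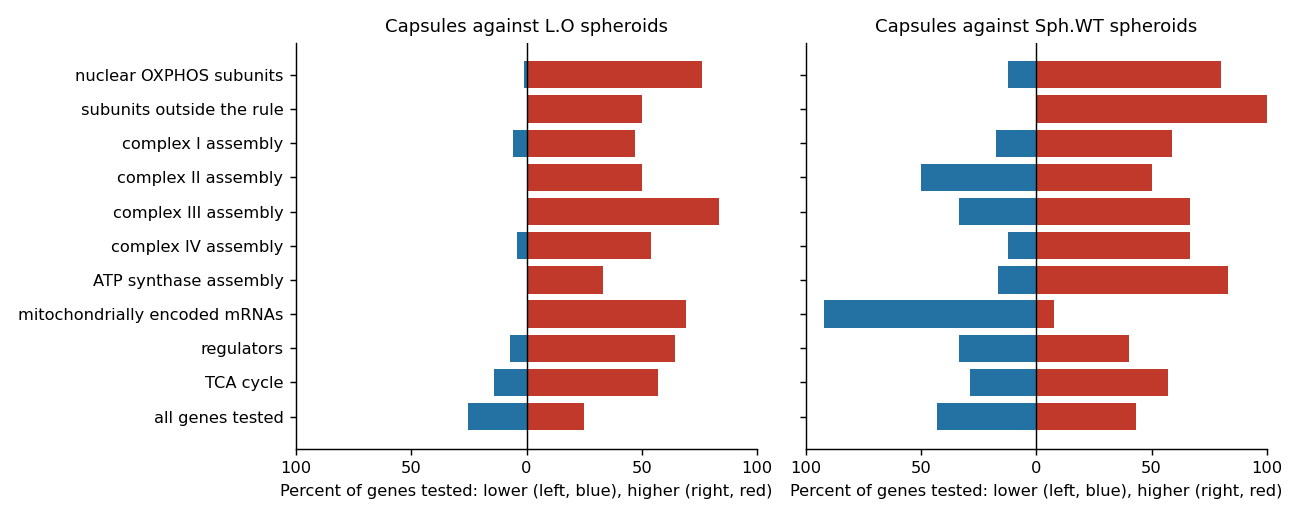
Percent of tested genes called higher (red, right) and lower (blue, left) in capsules, by list, against L.O spheroids on the left and Sph.WT spheroids on the right; all genes tested are the bottom row. Nuclear subunits were called higher for 61 of 80 and 65 of 81 genes, whereas the mitochondrially encoded mRNAs had 9 of 13 higher in one comparison and 12 of 13 lower in the other.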

How the data were processed

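RNA sequencing counts of 9 libraries were analysed. The values are counts of reads per gene as deposited by the authors, whole numbers for 17911 Entrez genes with no normalization. The submitters' processing notes name featureCounts, limma and the build hg38 but no versions. Which aligner, annotation and strand setting were used is not given in the sources used here. Columns were matched to samples by header. The capsule columns matched 3 samples, and the other 6 matched the spheroids without a size. No column was left out.

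Fold changes came from edgeR 4.0.16 (R 4.3.3), with TMM scaling, the default filter on low counts, the quasi-likelihood test and Benjamini-Hochberg adjustment over all genes tested, called at an adjusted p under 0.05. Columns of all spheroids gave the planned comparison, and each header set was also compared alone. The fits were also run on simulated counts, drawn with the same mean for both spheroid header sets. That run does not cover the spread between the sets in the planned comparison. DESeq2 1.42.0, limma 3.58.1, other scalings, no filter, a replicate block, offsets for exon length and GC content (GENCODE release 29), and leaving out each library were alternatives, and those within a header set were added after seeing the data. Single values per library had an exact two-sided permutation test. Intervals between libraries and floors of 3 counts cover the spread of these libraries and counting error only.

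The members and gene lists were chosen with earlier results of these data known. Named genes were fixed pairs of restricted and common subunits, catalytic subunits, and the 2 genes with the largest and smallest called changes per complex. From pathway lists, names were taken mostly from the 2 genes with the largest called change in each direction. Many genes that the rule for the pathway lists names are not reported by themselves here.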

Additional observations from a re-analysis of the deposited data

How the results depend on the processing

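Against all 6 spheroid libraries, the median log2 fold change of the subunit genes stayed positive under every setting run, at 0.61 with upper quartile factors, 0.58 with limma-voom, 0.581 with 3 groups by header set, 0.43 with offsets for exon length and GC content, 0.42 with L.O spheroids alone and 0.78 with Sph.WT spheroids alone, and 0.48 to 0.58 with a library left out. The number of subunit genes called higher moved more: 7 with upper quartile factors, 4 with library totals alone, 33 with DESeq2, 70 (2 lower) with 3 groups, 0 with the replicate block, 61 (1 lower) against L.O and 65 (10 lower) against Sph.WT spheroids, and 0 to 12 with a library left out. At least 2-fold higher were 2 with DESeq2, 14 with 3 groups, 1 with the offsets, 1 (1 lower) against L.O, 32 (3 lower) against Sph.WT spheroids, and 0 to 1 with a library left out. Over all genes, 359 were called with library totals, 486 with upper quartile factors, 477 with the offsets, 4025 with DESeq2 and 12643 with 3 groups. With the replicate block 0 were called, with a library left out 0 to 609, against L.O 7970 and against Sph.WT 13909. The cause was not tested. With the block, 34 subunit genes were higher at an unadjusted p under 0.05, beside 2856 genes of the table in either direction. Deviations of same-numbered libraries from their set's mean had r from −0.113 to 0.022, beside −0.087 to 0.142 for libraries of different number. With 3 libraries a set, these values cannot show whether same-numbered libraries shared more than a number, which the labels do not say. Within header sets, 58 subunit genes were called higher with the block against L.O and 65 against Sph.WT. Counts over all genes are not given for these fits.

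Against L.O spheroids, 54 to 71 subunit genes were higher with a library left out, and 0 to 2 were at least 2-fold higher. In those fits 6592 to 7923 genes of the table were called in either direction. At least 2-fold higher were 0 with upper quartile factors or library totals, and 2 without the filter or with the offsets. Library totals and the offsets each gave 2 lower. The median was 0.35 with upper quartile factors and 0.28 with library totals. Against Sph.WT spheroids, 6 were lower (1 at least 2-fold) with upper quartile factors, median 1.04, and 5 (1 at least 2-fold) with library totals, median 1.06, and the offsets gave a median of 0.58. Over all genes, 5813 were lower there with upper quartile factors and 5722 with library totals. With a library left out the median was 0.69 to 0.78 there.

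Some named genes turned sign in log2 fold change. Against all spheroids, COX6B2 was 1.43 with limma-voom and 1.70 with 3 groups, ATP5F1A 0.078 with upper quartile factors, 0.063 with library totals and 0.079 with the offsets, which also gave COX6B1 −0.086, COX7A1 −0.40, COX8A −0.22, SDHA 0.028 and UQCRFS1 −0.075. L.O spheroids alone gave NDUFS7 −0.076, NDUFV2 0.45, SDHA 0.092, SDHD 0.34 and ATP5F1A 0.42, and Sph.WT spheroids alone gave COX7A1 −0.25, COX7A2L −0.011 and UQCRFS1 −0.25. Against L.O, library totals gave COX7A2L −0.0013, COX8A −0.065, NDUFV1 −0.11 and SDHA −0.054, upper quartile factors NDUFV1 −0.036, and the offsets COX7A2L −0.021 and NDUFS7 0.15. Against Sph.WT, the offsets gave COX6B1 −0.24, COX7A2 −0.13, COX8A −0.44, COX7A2L 0.071 and SDHA 0.026. There COX7A1 was 0.0041 with upper quartile factors and 0.022 with library totals, COX7A2L 0.0067 with RLE factors and DESeq2 (0.0067), 0.24 with upper quartile factors and 0.26 with library totals, SDHA 0.00011 with library totals, and UQCRFS1 0.0072 and 0.027 with upper quartile factors and library totals. With a library left out, ranges crossing 0 against all spheroids were −0.56 to 0.060 for COX6B2, −0.079 to 0.82 for COX7A1, −0.0066 to 0.090 for COX7A2L, −0.078 to 0.065 for UQCRFS1 and −0.15 to 0.0082 for ATP5F1A. Against L.O they were −0.20 to 0.031 for NDUFS7 and −0.040 to 0.084 for NDUFV1. Against Sph.WT they were −0.72 to 0.18 for COX7A1, −0.075 to 0.16 for COX7A2 and −0.0081 to 0.089 for NDUFS1.

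Limits are the lack of sizes in the spheroid headers, marker levels that go against the label in 6 of 9 libraries, and 3 libraries a set, where an exact test cannot go below 0.1. Genes with few counts, such as COX6B2 and NDUFA4L2, carry wide counting error.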
